A study of Mus musculus with 6 samples.

Results

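Gas5, Snhg1, Snhg3, Snhg5, Snhg6, Snhg8, Snhg12, Snhg15 and Snhg17 are long noncoding genes whose introns carry genes for small nucleolar RNAs (snoRNAs). They were chosen by name, as the 9 listed symbols with nonzero values in a table of 55367 gene symbols, and all 9 were among the 12618 genes with enough reads to be tested. The table holds RNA sequencing values of LLC cells, a wild type mouse line from a Lewis lung carcinoma. The cells were cultured for 46 h with the solvent DMSO (3 libraries) or with STM2457 at 5 µM (3 libraries). STM2457 inhibits METTL3, the enzyme that places N6-methyladenosine (m6A) on RNA. All libraries come from 1 cell line, and no label tells whether replicates were grown apart. The p-values therefore speak of the spread among these libraries alone, and that spread may be technical.

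A snoRNA host gene is transcribed and spliced like a coding gene, and its snoRNAs are trimmed out of the removed introns. C/D box snoRNAs guide 2′-O-methylation and H/ACA box snoRNAs guide pseudouridylation, mostly of ribosomal RNA. The spliced exons of several hosts, Gas5 and Snhg1 among them, are known to be loaded on ribosomes and removed by nonsense-mediated decay (NMD), and the Gas5 transcript begins with a pyrimidine tract like those of ribosomal protein mRNAs. Host RNA levels are therefore known to depend on transcription, on translation and on decay, and a library of spliced RNA reads the host and not the snoRNA.

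In the GENCODE M21 annotation of GRCm38, the build named in the submitters' processing notes, the 9 hosts hold 31 annotated snoRNA loci: 9 in Gas5, 8 in Snhg1, 4 in Snhg12, 3 in Snhg17, 2 each in Snhg3 and Snhg5, and 1 each in Snhg6, Snhg8 and Snhg15. Each of the 31 lies in an intron of at least 1 transcript of its host, and 29 also lie under an exon of another annotated transcript. By exact letters, 16 loci hold TGATGA in the first 20 bases and CTGA in the last 15, the C and D boxes, and 9 hold ACA near the 3′ end, the box of the other class. The other 6 hold neither pattern, which says only that these letters are not in those windows.

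**Figure D1:**
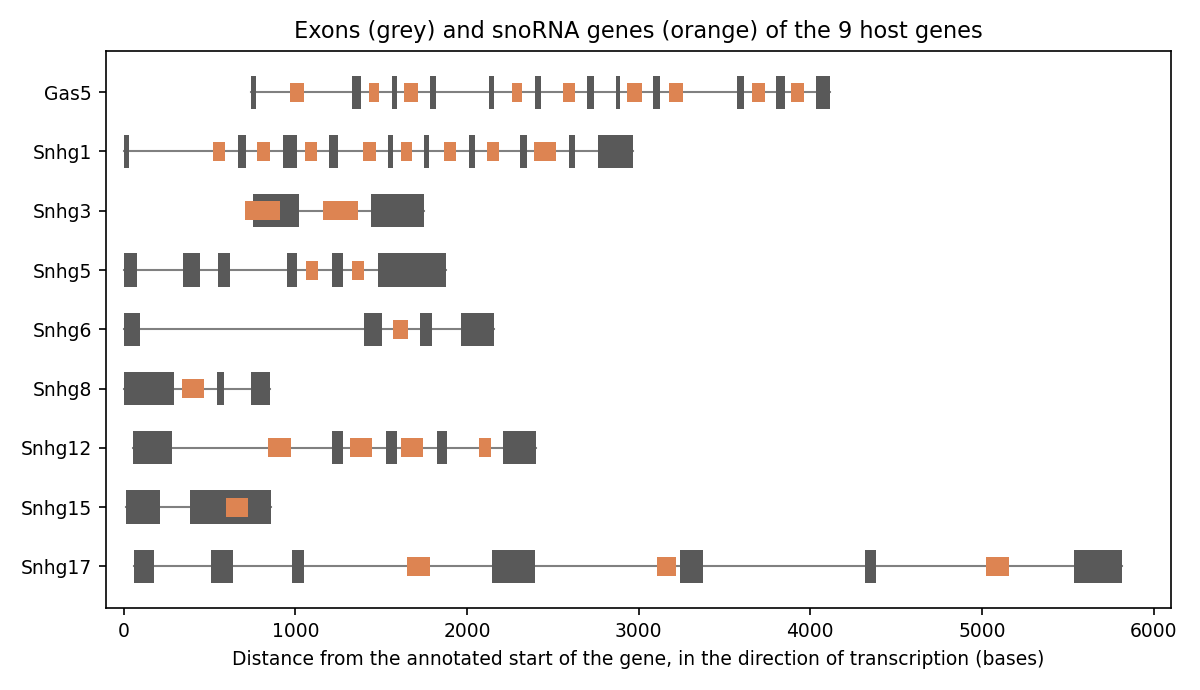
Exons of 1 transcript of each host gene (grey, the basic transcript with the most exons) and the snoRNA genes inside it (orange), against the distance in bases from the annotated start of the gene, in the direction of transcription. Gas5 and Snhg1 alternate short exons with 9 and 8 snoRNA genes, and Snhg15 and Snhg3 each show a snoRNA gene under an exon of the transcript drawn.

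A few snoRNAs show the classes, read from the genome build above on the strand of the host and with the box letters in capitals. Snord50a and Snord50b, both in Snhg5, are 72 bases long and differ by C50A, counted from the 5′ end (Snord50a first). Snord87 is the intronic snoRNA of Snhg6 and the only one of the 9 hosts' snoRNAs with a read in the table, and Snora9, in Snhg15, is of the H/ACA class.
Snord50a: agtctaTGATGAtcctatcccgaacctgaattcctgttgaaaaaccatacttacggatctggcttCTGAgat
Snord50b: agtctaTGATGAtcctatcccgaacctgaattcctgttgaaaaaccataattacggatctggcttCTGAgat
Snord87: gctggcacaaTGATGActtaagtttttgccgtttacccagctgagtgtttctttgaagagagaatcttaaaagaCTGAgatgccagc
Snora9: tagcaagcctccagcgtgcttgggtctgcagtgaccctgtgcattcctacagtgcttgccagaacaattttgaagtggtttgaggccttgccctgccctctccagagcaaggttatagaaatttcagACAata

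The libraries held 17671684 to 17917211 reads in genes, recovered from the deposited log2 values. The RNA of Mettl3 stood at 537 ± 66.0 normalised reads with DMSO and at 488 ± 32.4 with STM2457 (mean ± SD, n = 3; adjusted p = 0.15 by limma); the compound acts on the enzyme, so this level does not check the labels. It passed as lower with median (0.035) or upper-quartile (0.040) centring and without DMSO replicate 1 (0.0089). The labels give lung as the tissue. In the markers of other cell types, the mesenchymal genes Vim and Cdh2 together gave 52602 to 54550 reads per library in DMSO and 46800 to 47814 after STM2457, 4 epithelial genes gave 0 to 11 with Epcam and Cdh1 listed at 0, and 3 alveolar and airway genes gave 0 to 2 with Nkx2-1 listed at 0. The 4 leukocyte genes gave 87 to 110 reads, almost all from Cd68, with Ptprc at 0 or 1 and Cd3e and Adgre1 listed at 0. The 3 endothelial genes gave 3 to 9, and the 5 fibroblast genes 343 to 370 in DMSO and 363 to 415 after STM2457. Single markers moved within these sums: Vim fell to 0.872 (limma adjusted p = 4.1e-05) and Cdh2 rose 1.32-fold (5.3e-06), and of the fibroblast genes Pdgfrb rose 2.54-fold (2.0e-09) and Col1a2 fell to 0.465 (3.5e-08). The part of these genes or of other cells in the host gene values was not tested.

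After STM2457, Snhg1, Snhg17 and Snhg8 fell and Snhg15 rose, each by less than 20%, and the other 5 host genes did not pass the test (limma on the deposited log2 values, Benjamini-Hochberg adjusted p under 0.05 over all tested genes). The 3 lower calls among 9 stand beside a background of 25.7% of all tested genes called lower, and the 1 higher call beside 30.7%. With the libraries centred on their median or upper quartile, 6 of 9 were lower and 0 higher, and the background turned to 4621 genes lower and 2941 higher, or 4814 and 2819, from 3240 and 3868. Without STM2457 replicate 1 the host genes were also 6 lower and 0 higher, beside 2810 genes lower and 3454 higher. In either direction 4 of 9 were called, against 56.3% of all tested genes. The same 4 were the genes whose groups of libraries did not overlap: 3 lower, against 28.4% of all tested genes, 1 higher, against 33.4%, and 4 in either direction, against 61.8%. These are bulk libraries, in which fewer cells of a type and less RNA per cell cannot be told apart. The median host gene had a fold of 0.901 in the recovered reads, and the median of all tested genes was 1.01.

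**Figure D2:**
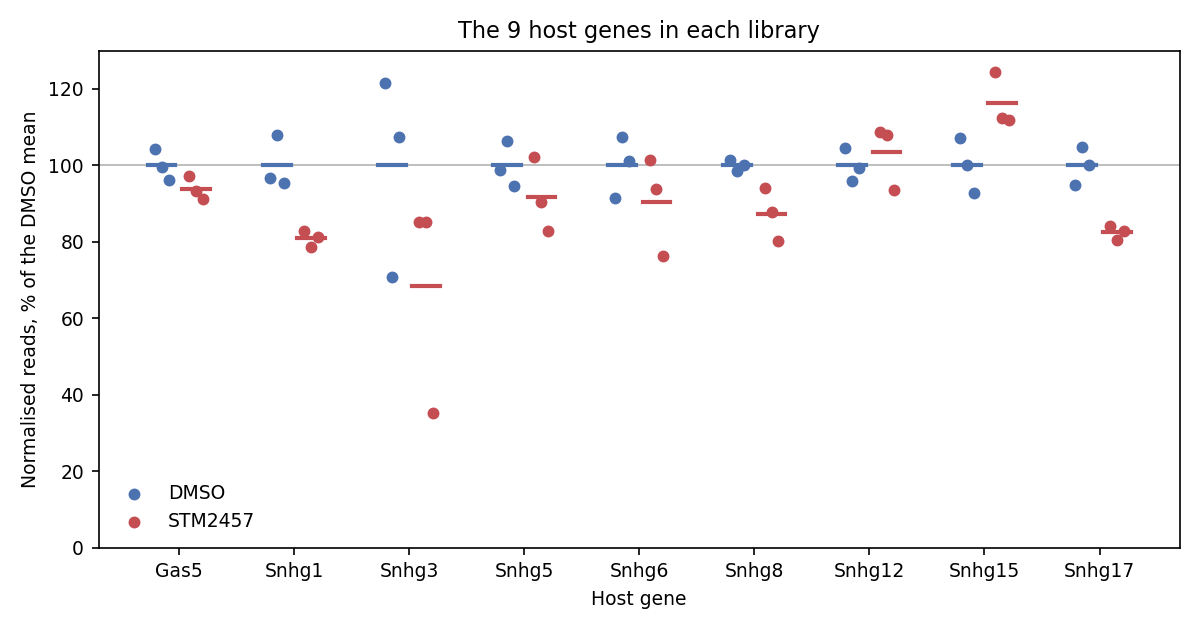
Normalised reads of each host gene in each library, as a percent of the gene's DMSO mean (points; horizontal bars are group means of 3 libraries). The STM2457 libraries of Snhg1, Snhg8 and Snhg17 lie below all DMSO libraries, those of Snhg15 lie above, and the groups overlap in the other 5 genes.

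Snhg1, the host of the C/D box snoRNA U22 and 7 further loci (chromosome 19, 8723475 to 8726443, plus strand), gave 1580, 1781 and 1553 reads in the DMSO libraries and 1365, 1297 and 1344 in the STM2457 libraries, in the order of replicates 1 to 3 as everywhere below. All 3 treated libraries lay below all 3 controls, and the treated ones were the more alike. Normalised for depth, the level went from 1637 ± 114 to 1326 ± 33.8 (SD, n = 3), a fold of 0.811 with a 95% interval from 0.757 to 0.868 (limma adjusted p = 9.3e-06).

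Snhg17, which holds 3 H/ACA loci (chromosome 2, 158353700 to 158361580, minus strand), fell by a like amount. Its reads were 1166, 1301 and 1228 in DMSO and 1042, 998 and 1031 after STM2457, with no overlap and with DMSO replicate 2 highest, as in Snhg1. The normalised level went from 1231 ± 61.9 to 1016 ± 22.1 (SD, n = 3), a fold of 0.826 (interval 0.772 to 0.884, limma adjusted p = 2.8e-05).

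Snhg8, a short gene with Snora24 in its first intron (chromosome 3, 123507552 to 123508404, minus strand), gave 357, 350 and 352 reads in DMSO and 334, 312 and 286 after STM2457. The DMSO libraries were nearly equal, and the treated ones were all lower and more spread. Its level went from 353 ± 5.08 to 308 ± 24.2 normalised reads (SD, n = 3), a fold of 0.872 (interval 0.785 to 0.970, limma adjusted p = 0.026). Snhg8 no longer passed when DMSO replicate 1 (adjusted p = 0.057) or 3 (0.060), or STM2457 replicate 2 (0.060) or 3 (0.15), was left out.

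Snhg15, the host of Snora9 (chromosome 11, 6525591 to 6528760, minus strand), was the only one of the 9 to rise. It gave 466, 439 and 402 reads in DMSO and 546, 492 and 492 after STM2457, so that the lowest treated library lay above the highest control. The level went from 435 ± 31.4 to 506 ± 31.2 normalised reads (SD, n = 3), a fold of 1.16 (interval 1.06 to 1.28, limma adjusted p = 0.0081). Snhg15 no longer passed when DMSO replicate 3 (0.064) or STM2457 replicate 1 (0.074) was left out, nor with the libraries centred on their median (0.055) or upper quartile (0.079).

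Gas5, named for its accumulation in growth-arrested cells (chromosome 1, 161034422 to 161038539, plus strand), gave 3831, 3689 and 3529 reads in DMSO and 3604, 3460 and 3390 after STM2457. Treated replicate 1 lay within the range of the controls, so the groups overlapped. Normalised, Gas5 stood at 3681 ± 147 with DMSO and at 3459 ± 112 with STM2457 (SD, n = 3), a fold of 0.940 with an interval from 0.889 to 0.994, and it did not pass the adjusted threshold (limma adjusted p = 0.058). It passed without DMSO replicate 3 (0.034) or STM2457 replicate 1 (0.047), and with median (0.0030) or upper-quartile (0.0013) centring.

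Snhg5, which carries the U50 pair shown above (chromosome 9, 88521050 to 88522929, minus strand), gave 928, 1010 and 888 reads in DMSO and 968, 856 and 788 after STM2457. Snhg6, which carries Snord87 (chromosome 1, 9941959 to 9944118, minus strand), gave 810, 958 and 892 in DMSO and 906, 837 and 682 after STM2457. In both, treated replicate 1 lay inside the DMSO range and treated replicate 3 below it. The fold was 0.916 (interval 0.833 to 1.01, limma adjusted p = 0.11) for Snhg5 and 0.901 (0.751 to 1.08, adjusted p = 0.27) for Snhg6. Without STM2457 replicate 1 both passed as lower (0.0097 and 0.038). Snhg5 also passed with median (0.020) or upper-quartile (0.021) centring, and Snhg6 without a filter on low values (0.034).

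Snhg12, with 4 snoRNA loci of both classes (chromosome 4, 132308623 to 132311024, plus strand), gave 600, 556 and 569 reads in DMSO and 629, 625 and 543 after STM2457. Treated replicate 3 was the lowest of the 6 libraries and the other treated libraries were the highest. The fold was 1.03 (interval 0.944 to 1.13, limma adjusted p = 0.54), and the sign of the difference turned with median or upper-quartile centring. On the deposited log2 scale the difference of 0.024 lay between 0.0050 and 0.060 when 1 library was left out.

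Snhg3, the host of Snora73a and Snora73b (chromosome 4, 132348014 to 132353686, minus strand), was near the limit of the test with 17, 10 and 15 reads in DMSO and 12, 12 and 5 after STM2457. The fold of 0.666 has an interval from 0.409 to 1.09 (limma adjusted p = 0.22), so a fall or a small rise could not be told apart at this depth. Its deposited log2 difference of -0.033 lay between -0.048 and -0.015 when 1 library was left out. With median (0.015) or upper-quartile (0.0092) centring it passed as lower. The centring shift, 0.032 or 0.038, was about as large as the difference itself. The deposited scale keeps 5.23% of a log2 difference at 10 reads, so these passes are uncertain. Of the annotated exon bases of Snhg3 83.3% are shared with other genes, snoRNA genes not counted. Rcc1 shares 135 bases on the same strand and Gm17300 705 on the other. Rcc1, for a chromatin-bound exchange factor of the GTPase Ran, rose to 2604 ± 54.5 normalised reads from 1932 ± 28.1 in DMSO (SD, n = 3; adjusted p = 1.4e-09 by limma), and Gm17300 from 96.6 ± 6.38 to 146 ± 8.55 (adjusted p = 5.3e-05). How reads over shared bases were counted, and whether strand was used, was not given in the sources used here, so Snhg3 is uncertain.

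Snhg6 shares 127 exon bases, 11.1% of its own, with Mcmdc2 on the other strand, which had 0 to 3 reads per library. Gas5 lies across Zbtb37 on the other strand with no exon base in common. Zbtb37 stood at 271 ± 12.6 normalised reads with DMSO and at 245 ± 2.65 with STM2457 (SD, n = 3; adjusted p = 0.12 by limma), and passed as lower with median (0.019) or upper-quartile (0.014) centring. Apart from the snoRNA genes described above, none of the exon bases of Snhg1, Snhg5, Snhg8, Snhg12, Snhg15 and Snhg17 is shared with another annotated gene.

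**Figure D3:**
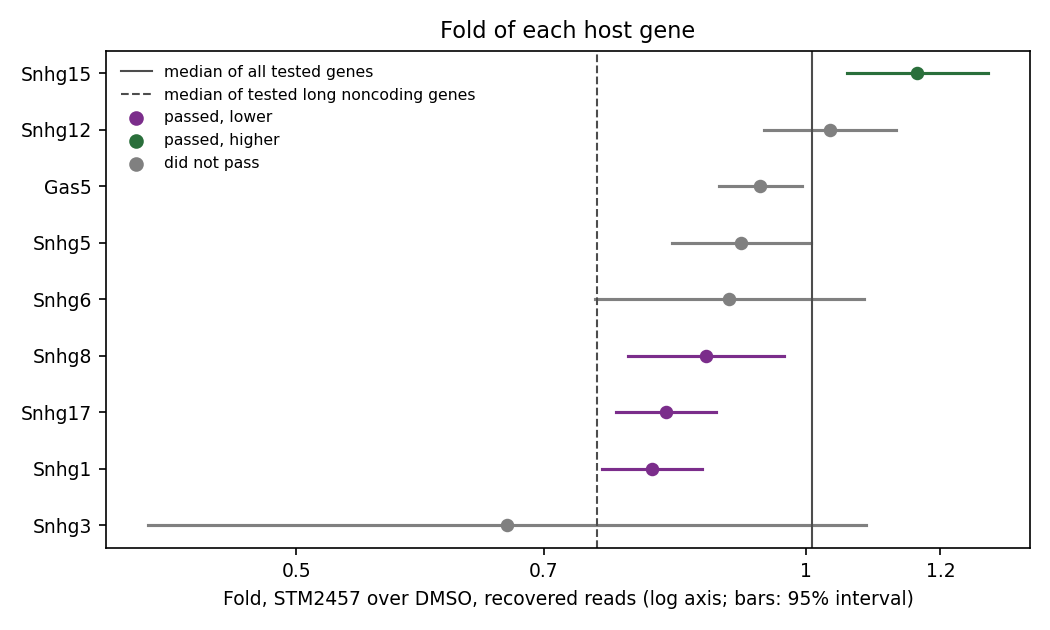
Fold of each host gene after STM2457 over DMSO in the recovered reads, on a log axis, with its 95% interval (bars) and coloured by the call of the test on the deposited values. Folds run from 0.666 for Snhg3, with the widest interval, to 1.16 for Snhg15, beside the medians of all tested genes (solid line, 1.01) and of tested long noncoding genes (dashed line, 0.753).

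Per library, the 9 host genes together measured 552, 571 and 533 CPM (reads scaled by the reads in genes of the library) in DMSO and 525, 496 and 479 CPM after STM2457. All treated sums lay below all control sums, 500.03 ± 23.4 against 552 ± 18.9 CPM (SD, n = 3). Gas5 alone made up 37.7% of the sum in DMSO and 38.9% after STM2457. STM2457 replicate 3 was the lowest library for 6 of the 9 genes, while 14.9% of all tested genes were lowest there, and DMSO replicate 2 was the highest for 4 of 9, against 18.9% of all tested genes.

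Ratios of 2 host genes within a library do not depend on its depth, and 6 such ratios, chosen after the values were seen, were computed as a description. The ratio of Snhg15 to Snhg1 was 0.295, 0.246 and 0.259 in DMSO and 0.400, 0.379 and 0.366 after STM2457, which is 1.43-fold higher on average. The ratio of Snhg15 to Snhg17 was 1.41-fold higher and that of Snhg15 to Gas5 1.24-fold higher. Snhg1 and Snhg17 went down against Gas5 as well, to 0.863 and 0.879 of the DMSO ratio. In each of the 6 ratios the groups did not overlap, including Snhg12 to Snhg1 at 1.27-fold. Each pair holds at least 1 host gene whose own groups did not overlap, as in 61.8% of all tested genes. The share over other gene pairs was not computed. A ratio shows unequal change and not which gene moved.

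**Figure D4:**
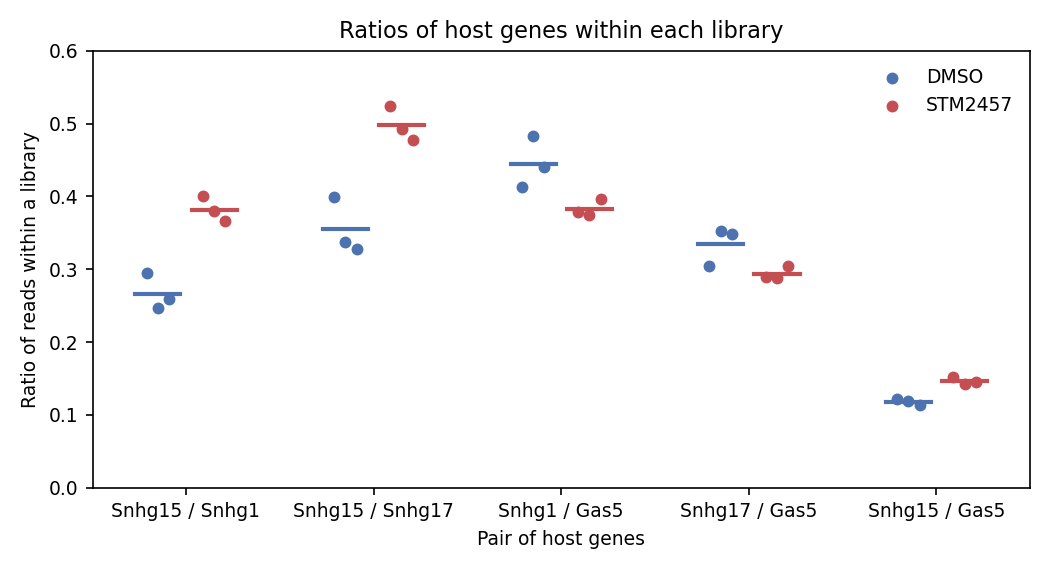
Ratio of the reads of 2 host genes within each library, for 5 of the 6 pairs (points; horizontal bars are means of 3 libraries). Snhg15 against Snhg1, Snhg17 or Gas5 is higher in all STM2457 libraries, and Snhg1 or Snhg17 against Gas5 is lower.

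Per kilobase of annotated exons, Gas5 was the highest in DMSO with 979 ± 39.1 normalised reads per kb (SD, n = 3), followed by Snhg6 with 773 ± 61.5, Snhg1 with 551 ± 38.5 and Snhg5 with 544 ± 32.5. The libraries of Snhg1 and Snhg5 overlapped, so their order is not set. Snhg8 (414 ± 5.96), Snhg15 (320 ± 23.1), Snhg12 (239 ± 10.3) and Snhg17 (175 ± 8.78) followed without overlap, and Snhg3 was far below at 14.2 ± 3.72. The order depends on the length used. Per kilobase of 1 spliced transcript Gas5 was again first and Snhg3 last, with Snhg1 at rank 2 and Snhg6 at 3. Snhg17 came at rank 5, Snhg12 at 6, Snhg8 at 7 and Snhg15 at 8, so their order is not set either.

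The snoRNAs themselves were almost unseen. Of the 31 loci 30 have a row in the table, and 1 had any read: Snord87, with 4, 5 and 2 reads in DMSO and 0, 4 and 3 after STM2457. For a row at 0, up to 3 reads, or 0.167 to 0.170 CPM, are allowed in a library, which covers counting error only. Of the 31 loci 29 lie under a host exon. Snord87 and Snora73b, the latter in Snhg3, do not, and the row of Snora73b was at 0 in every library. How reads over shared bases were counted was not given, so a 0 need not mean absent RNA. Among all rows, 241 of 1481 annotated snoRNA symbols had a read and 31 could be tested. The labels name an mRNA library kit, and these values do not bear on snoRNA levels.

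A pyrimidine tract that begins with C at the first transcribed base marks the 5′ terminal oligopyrimidine (TOP) RNAs, whose translation follows mTOR activity. The RefSeq windows of GRCm38.p6, 250 bases before to 50 after each annotated start, were searched on the strand of transcription for a run of at least 5 C or T letters beginning with C within 5 bases of the start. Windows were found for 8 of the 9 host genes, all but Snhg6. The run was present in 4 of the 8, Gas5 (at the later of its annotated starts), Snhg3, Snhg8 and Snhg12. Counted by window, as some genes have several, 4 of the hosts' 10 windows held it, against 18.3% of 32841 windows, 19.9% of 11992 windows of tested genes and 44.1% of 68 windows of tested ribosomal protein genes. Each sequence below runs from 15 bases before the annotated start, with the run in capitals, to set hosts that have it beside the hosts that changed most.
Gas5 (chr1:161035151-161035195, plus strand): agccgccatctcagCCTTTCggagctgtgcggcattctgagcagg
Snhg12 (chr4:132308663-132308707, plus strand): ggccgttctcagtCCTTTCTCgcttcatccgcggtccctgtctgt
Snhg8 (chr3:123508307-123508351, minus strand): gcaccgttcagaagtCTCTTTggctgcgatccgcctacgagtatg
Snhg1 (chr19:8723472-8723516, plus strand): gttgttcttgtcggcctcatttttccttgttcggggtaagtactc
Snhg15 (chr11:6528731-6528775, minus strand): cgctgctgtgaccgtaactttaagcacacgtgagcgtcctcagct
Snhg17 (chr2:158361480-158361524, minus strand): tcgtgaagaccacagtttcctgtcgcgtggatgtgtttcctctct

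Of the hosts with the run, Snhg8 fell, and Gas5 (fold 0.940), Snhg3 (0.666) and Snhg12 (1.03) did not pass. Of those without it, Snhg1 and Snhg17 fell, Snhg15 rose and Snhg5 did not pass. A match is a description of letters and no measure of TOP control.

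METTL3 places m6A within a short context of which GGACT is a common form. The sense strand of the transcript with the most exons holds GGACT at 1 position in Gas5 (base 117), 1 in Snhg6 (base 185) and 2 in Snhg15 (bases 333 and 361), counted from the transcript's 5′ end, and at none in the other 6 hosts. Among tested genes 88.7% of 12397 held at least 1, in transcripts with a median length of 2785 bases, and among 735 tested long noncoding genes 75.8% did, at a median of 1393 bases. The 9 host transcripts are shorter, from 448 bases for Snhg8 to 1046 for Snhg17. The Snhg15 transcript searched is the 1 annotated with an exon over Snora9. In 2 other transcripts of the gene Snora9 lies in an intron, and whether these hold the matches was not searched. The first match in each of the 3, with its neighbours in the GENCODE transcript and the match in capitals, shows where a methylated base could be looked for.
Gas5: gaaggcttacgaGGACTcgtcaggaagct
Snhg6: aacaagctgccaGGACTacatttgccaat
Snhg15: aattcattttcaGGACTaattctctcccc

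Of these 3, Snhg15 rose, and Gas5 (fold 0.940) and Snhg6 (0.901) did not pass. Of the 6 hosts with no GGACT in the transcript searched, Snhg1, Snhg8 and Snhg17 fell, and Snhg3, Snhg5 and Snhg12 did not pass. No methylation was measured in these libraries, and other m6A contexts were not searched.

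Other noncoding snoRNA hosts gave a mixed picture too. Of 9 tested genes of that list 3 rose (33.3%), 1 fell (11.1%) and 5 did not pass, with a median fold of 1.04. Of all tested genes 30.7% rose and 25.7% fell. Dancr rose from 156 ± 23.7 to 211 ± 11.1 normalised reads (fold 1.37, limma adjusted p = 6.7e-04), Snhg4 rose 1.16-fold (7.2e-04) and Epb41l4aos 1.18-fold (0.023). Epb41l4aos no longer passed with median (0.12) or upper-quartile (0.17) centring, nor without DMSO replicate 3 (0.10) or STM2457 replicate 1 (0.086) or 2 (0.077). With either centring 2 genes of this list rose and 3 fell. Snhg14, the long transcript that carries the imprinted Snord115 and Snord116 clusters, fell from 192 ± 18.9 to 94.0 ± 1.25 normalised reads (SD, n = 3), a fold of 0.493 (limma adjusted p = 1.5e-08).

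Coding genes that host snoRNAs moved both ways, as did all tested genes (30.7% higher, 25.7% lower). In a hand-made list 8 of 21 rose (38.1%) and 6 fell (28.6%), with a median fold of 0.993. With median or upper-quartile centring 7 or 6 rose and 8 fell. Ncl, for the nucleolar protein nucleolin, rose 1.36-fold (limma adjusted p = 1.7e-10), Dkc1, for the pseudouridine synthase of H/ACA particles, 1.28-fold (1.2e-07) and Nop56, for a core protein of C/D particles, 1.23-fold (1.3e-07), while Rpl23a fell to 0.787 (5.9e-08). Of all 198 tested coding genes with an annotated snoRNA in their span, 60 rose (30.3%) and 64 fell (32.3%). The counts were 45 and 86 with median and 43 and 86 with upper-quartile centring. These 198 genes were divided after their values were seen. The 28 that encode ribosomal proteins had 20 lower (71.4%) and 0 higher calls at a median fold of 0.900. The other 170 had 60 higher (35.3%) and 44 lower (25.9%) at 1.03. Many processed copies of ribosomal protein genes exist, so the reads of these genes are uncertain.

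Genes for snoRNP proteins and assembly factors, which package and stabilise the snoRNAs, were mostly higher. Of the 20, 13 rose (65%, against 30.7% of all tested genes), 2 fell (10%, against 25.7%) and the median fold was 1.14. With median or upper-quartile centring 9 rose, and 3 or 4 fell. Nolc1, for a nucleolar chaperone of snoRNPs, rose 1.42-fold (limma adjusted p = 8.7e-11) and Nhp2, an H/ACA core protein gene, 1.39-fold (4.9e-09), beside the Dkc1 and Nop56 values above. The 2 that fell were the ATPase genes Ruvbl2 (0.813) and Ruvbl1 (0.923), whose products serve in several assembly complexes. Ruvbl1 no longer passed without a filter on low values (0.053), or when DMSO replicate 1 (0.052) or STM2457 replicate 2 (0.066) or 3 (0.062) was left out.

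Genes of NMD, the decay route known for host exons, had 8 higher (47.1%) and 4 lower (23.5%) calls of 17, at a median fold of 1.06. All tested genes had 30.7% higher and 25.7% lower calls. Smg5, for a decay adaptor, rose 1.32-fold (limma adjusted p = 5.4e-09), Smg8, for a regulator of the SMG1 kinase, 1.46-fold (1.7e-08), the exon junction gene Magoh 1.33-fold (1.3e-07) and Upf2, for a core factor, 1.22-fold (2.4e-05). Of 10 genes for regulators of TOP mRNAs and cap binding 4 rose (2 with either centring) and 3 fell, at a median of 1.01. As shares, 40% and 30% stand beside 30.7% and 25.7% of all tested genes. Larp4 rose 1.28-fold (5.7e-08), and Tia1 (0.784), Eif4ebp1 (0.849) and Tial1 (0.853) fell. RNA levels of these factors do not measure decay or translation.

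Among long noncoding genes as a class, which include the 9 hosts, lower calls outnumbered higher ones. Of 735 tested ones 312 (42.4%) were called lower and 40 (5.44%) higher, at a median fold of 0.753. Of all tested genes 25.7% were lower and 30.7% higher. In a list of 14 well-known long noncoding genes 9 fell and 1 rose, at a median fold of 0.740. Neat1, the paraspeckle RNA, fell to 0.304 (limma adjusted p = 4.5e-20), Malat1, a nuclear speckle RNA, to 0.540 (2.9e-11), Firre to 0.622 (4.1e-10) and Pvt1 to 0.702 (2.9e-10). The difference between the 9 hosts (median fold 0.901) and this class was not tested.

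**Figure D5:**
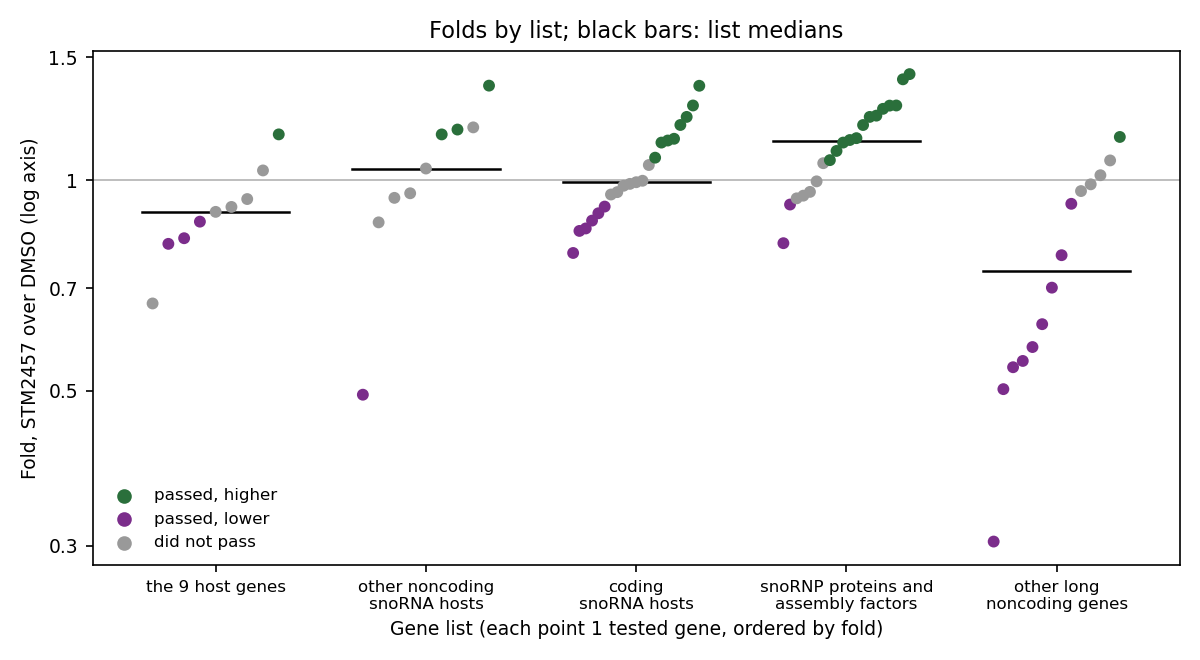
Fold after STM2457 over DMSO (log axis) of each tested gene in 5 lists, ordered by fold within a list, with the list median as a black bar and points coloured by call. The 9 host genes lie between 0.666 and 1.16, most snoRNP genes lie above 1, and most other long noncoding genes lie below it.

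Ranked by Pearson correlation of the deposited values over the 6 libraries with Snhg1, the host with the largest difference on that scale, the closest genes were 2700099C18Rik (0.999), A630052C17Rik (0.999), Strada (0.998), Cebpg (0.997) and Yars (0.997). All 5 were lower after STM2457, from 0.610 for 2700099C18Rik to 0.838 for Cebpg. Of the other host genes Snhg17 was the most like Snhg1 (0.975, position 135 of 12617) and Snhg15 the least (-0.69). The 6 libraries share 2 groups, so these values describe mostly the group difference.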

How the data were processed

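The authors deposited 1 table of log2 values for the 6 libraries; their transform is not stated in the labels. Per the submitters' processing notes the tools were FastQC 0.11.9, HISAT2 2.2.1, featureCounts 2.0.1 and DESeq2. The values have the form of a regularised log2 transform, which shrinks differences: 54.3% of a log2 difference is kept at 1000 reads and 5.23% at 10. Its equations were inverted to recover reads; of the 54 values of the 9 host genes 50 were whole within 0.05 reads, and all were rounded. Over the tested genes 87.4% of values were whole, and 58.8% in genes from a mean of 2000 reads, where recovered reads are approximate.

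Genes whose deposited values averaged 3.32 or more (log2 of 10) were tested with limma 3.58.1 in R 4.3.3 (trend and robust priors) on the deposited values with group as the only term, without a pseudocount. P-values were adjusted by Benjamini-Hochberg over all tested genes. Folds and 95% intervals come from limma-voom on the recovered reads, and normalised reads are reads divided by size factors from 0.995 to 1.01. Both fits were run on simulated data, whose spread was set and not estimated from these libraries. Of 100 genes with a log2 difference of 0.25, limma called 66 and limma-voom 64. Of 12418 genes with none, they called 8 and 7. The set spread was the same in both groups. In these libraries the mean squared difference between replicates was 2.99 to 4.97 times the counting variance in DMSO. After STM2457 it was 1.57 to 2.32 times. The error rates in these libraries may therefore differ.

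The host genes and all lists were chosen with earlier results of these data known. Genes named from each list are the 4 of smallest adjusted p, and Ruvbl1, Ruvbl2 and the cell markers given singly were added after their values were seen. Snhg1's most like genes are the 5 of highest correlation. Alternatives were other centring, filters, priors, limma-voom, a replicate block and leaving out each library. Transcripts, exons and snoRNA loci come from GENCODE M21, and start windows from RefSeq.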

Additional observations from a re-analysis of the deposited data

How the results depend on the processing

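Of 815 values under 13 alternatives 755 kept their direction and side of the threshold, or stayed within 1.5 times for a count, or within 1 SD for a ratio. Of 32 named genes outside the 9 hosts 28 kept their call under every alternative that tested them, all but Epb41l4aos, Ruvbl1, Zbtb37 and Mettl3. Centring the libraries moved the difference between groups by 0.032 (median) or 0.038 (upper quartile) on the deposited log2 scale, alike at every read level. For Snhg3 this was about as large as the difference itself. All tested genes then split into 2941 higher and 4621 lower, or 2819 and 4814, against 3868 and 3240. With either centring, and also without STM2457 replicate 1, 0 host genes were higher and 6 lower. The differences with median and upper-quartile centring were -0.085 and -0.090 for Gas5, -0.065 and -0.071 for Snhg3, -0.10 and -0.11 for Snhg5, 0.074 and 0.069 for Snhg15, and, with the sign turned, -0.0085 and -0.014 for Snhg12. Either centring gave 3 lower calls among other noncoding hosts, 2 higher among TOP regulators and 0 higher among other long noncoding genes, and upper-quartile centring gave 4 lower among snoRNP genes. Without a filter Snhg6 passed at -0.079 and snoRNP genes had 1 lower call; without trend and robust priors other noncoding hosts had 2 lower. The cause was not tested.

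Leaving out 1 library gave differences from -0.19 to -0.14 for Snhg1 and -0.17 to -0.13 for Snhg17, called in all 6 fits. The range was -0.11 to -0.063 for Snhg8 (called in 2), 0.081 to 0.13 for Snhg15 (called in 4), -0.068 to -0.034 for Gas5, -0.11 to -0.030 for Snhg5, -0.13 to -0.017 for Snhg6, -0.048 to -0.015 for Snhg3 and 0.0050 to 0.060 for Snhg12. From 2 to 6 host genes were lower and 0 to 1 higher. List counts ranged from 1 to 2 lower (other noncoding hosts), 1 to 3 lower (snoRNP), 2 to 4 lower (NMD), 2 to 4 higher (TOP) and 0 to 2 higher (other long noncoding). The stricter filter left Snhg3 untested.

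Same-numbered libraries deviated together with correlations of 0.05, 0.01 and 0.04. DMSO replicates 1 and 3 correlated best with their own number and DMSO replicate 2 did not. With so few libraries, values this low neither show nor exclude a pairing. A fit with the replicate number as a block called 7090 genes against 7108, with Snhg15 higher and Snhg1, Snhg8 and Snhg17 lower.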
